A study of Mus musculus with 5 samples.

Results

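Dusp1 and Dusp6 were 2 of the 11924 genes listed in 5 single-cell count tables, and both were found by name in each table. They were chosen by their measured UMI counts in these same libraries, in which earlier results had set Dusp1, grouped with immediate early and stress genes, apart from Dusp6, grouped with targets of the kinase ERK. Their levels are therefore given as a description, with no test. The labels name the cells as SMARTA cells, which are CD4 T cells with a transgenic T cell receptor, sorted as CD4+CD45.1+ cells from C57BL/6 material, with 1 library per group.

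The library labelled Treg-depleted and aCTLA4 came from mice given diphtheria toxin on days 0 and 2 and anti-CTLA4 antibody on days 0, 2 and 5 after tumor injection. The library labelled Treg-depleted came from mice given the toxin alone, and the aCTLA4 library from mice given the antibody alone. The untreated library is labelled with no treatment; the series text mentions an isotype antibody, and the protocols a saline control for the toxin, that no library's label gives. These 4 libraries came from cells sorted on day 8 out of the inguinal lymph nodes of tumor-bearing mice. The naive library was freshly isolated from spleen. The protocols name MC38 cells in one place and PyMG in another as the tumor, and the labels give neither the strain that made the regulatory T cells (Tregs) sensitive to toxin nor the number of mice behind a library.

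The products of both genes are dual-specificity phosphatases, enzymes that remove the activating phosphates from mitogen-activated protein (MAP) kinases. DUSP1 is a nuclear protein that acts mainly on p38 and JNK, and its gene is switched on within minutes by stress, cytokines, growth signals and glucocorticoids. DUSP6 is a cytoplasmic protein that acts mainly on ERK, and its gene is itself switched on by ERK signalling, which makes it a widely used readout of negative feedback on that pathway. In T cells, ERK is activated downstream of the T cell receptor through RASGRP1 and RAS.

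In the GENCODE M21 annotation of the GRCm38 build, Dusp6 lies on chromosome 10 from 99263231 to 99267489 on the plus strand, has 3 exons and overlaps no other annotated gene. Dusp1 lies on the minus strand of chromosome 17 and has 4 exons. RefSeq places it from 26505591 to 26508472, whereas GENCODE extends it to 26562128 and across Gm8225, AC122252.1, AC122252.4 and the 5′ end of Ergic1, which lies on the plus strand. Reads from those genes were not separated here, and whether they add to Dusp1 was not tested.

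The sequences upstream of the RefSeq start sites are shown because they differ in a cyclic AMP response element, an 8-base motif bound by the CREB and ATF factors. Capitals mark it, and each run covers the 250 bases before the start site, on the gene's own strand of GRCm38.p6 (chr17:26508473-26508722 for Dusp1, chr10:99262981-99263230 for Dusp6).
Dusp1: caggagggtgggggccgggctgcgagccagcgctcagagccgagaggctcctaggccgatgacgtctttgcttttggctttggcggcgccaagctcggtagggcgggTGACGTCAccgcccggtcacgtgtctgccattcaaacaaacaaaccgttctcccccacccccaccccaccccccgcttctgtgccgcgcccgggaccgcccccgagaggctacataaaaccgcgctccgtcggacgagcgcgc
Dusp6: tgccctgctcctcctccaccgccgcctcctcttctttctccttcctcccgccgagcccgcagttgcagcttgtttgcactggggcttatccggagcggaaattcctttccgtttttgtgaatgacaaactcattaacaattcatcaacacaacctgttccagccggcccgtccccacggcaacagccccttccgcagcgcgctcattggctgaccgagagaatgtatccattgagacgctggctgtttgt
In the full RefSeq window, which adds the first 50 transcribed bases, the Dusp1 promoter held the palindromic motif TGACGTCA once, 143 to 136 bases upstream of the start. This motif was found in 588 of 32851 such mouse promoters, or 1.79%. Neither promoter window held the AP-1 motif TGANTCA, the ETS motif CCGGAAGT or a CArG box on either strand. These were present in 7.81%, 3.89% and 1.63% of all windows. The upstream runs had 68.4% G and C for Dusp1 and 56.4% for Dusp6. A match or its absence describes only the letters of the window.

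The libraries held 1099 to 7955 cells and 3825958 to 27967273 unique molecular identifiers (UMIs, each standing for 1 captured transcript), with medians of 1683 to 5208.5 UMIs per cell. Levels are in CPM, which are UMIs summed over cells, divided by the listed-gene total of those cells and put on a common scale, and 95% intervals cover counting error alone. With 1 library per group, the spread between mice is unknown, and differences between groups cannot be told apart from differences between libraries. Foxp3, the defining transcription factor of Tregs, had a UMI in 38.0% of cells of the library labelled Treg-depleted and aCTLA4, 58.7% of those labelled Treg-depleted, 1.18% of aCTLA4 cells, 1.46% of untreated cells and 0.905% of naive cells. The depletion labels describe the mice, and many of the sorted cells had Foxp3. A variable gene of the SMARTA receptor had a UMI in 37.6%, 35.2%, 73.6%, 63.2% and 34.4% of cells in the same order. Of the marker lists for other cells, all 10 B cell genes were listed and summed to 1483, 1713, 272, 352 and 724 CPM in the same order. Cells that carried 2 or more genes from 1 such list made up 13.8%, 33.4%, 11.0%, 4.19% and 2.95%. This call was not matched for depth per cell, which differed between libraries. Of the 20101 distinct barcodes, 48 occurred in more than 1 library, and 0 of these had the same profile.

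Dusp1 had 3426 UMIs in the Treg-depleted and aCTLA4 library, 1420 in the Treg-depleted, 1806 in the aCTLA4, 759 in the untreated and 681 in the naive library. Its level was 203 CPM (196 to 210) with both treatments, 87.9 CPM (83.4 to 92.6) after toxin alone, 64.6 CPM (61.6 to 67.6) after antibody alone, 198 CPM (185 to 213) in untreated and 49.5 CPM (45.8 to 53.3) in naive cells. The order from high to low was thus Treg-depleted and aCTLA4, untreated, Treg-depleted, aCTLA4 and naive, and the intervals of the first 2 overlapped.

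Dusp6 had 475 UMIs in the Treg-depleted and aCTLA4 library, 162 in the Treg-depleted, 1492 in the aCTLA4, 350 in the untreated and 190 in the naive library. Its level was 28.2 CPM (25.7 to 30.8) with both treatments, 10.0 CPM (8.55 to 11.7) after toxin alone, 53.3 CPM (50.7 to 56.1) after antibody alone, 91.5 CPM (82.1 to 102) in untreated and 13.8 CPM (11.9 to 15.9) in naive cells. Untreated cells were highest, followed by antibody alone and both treatments, with no overlap between these intervals, and the naive and Treg-depleted libraries were lowest.

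**Figure D1:**
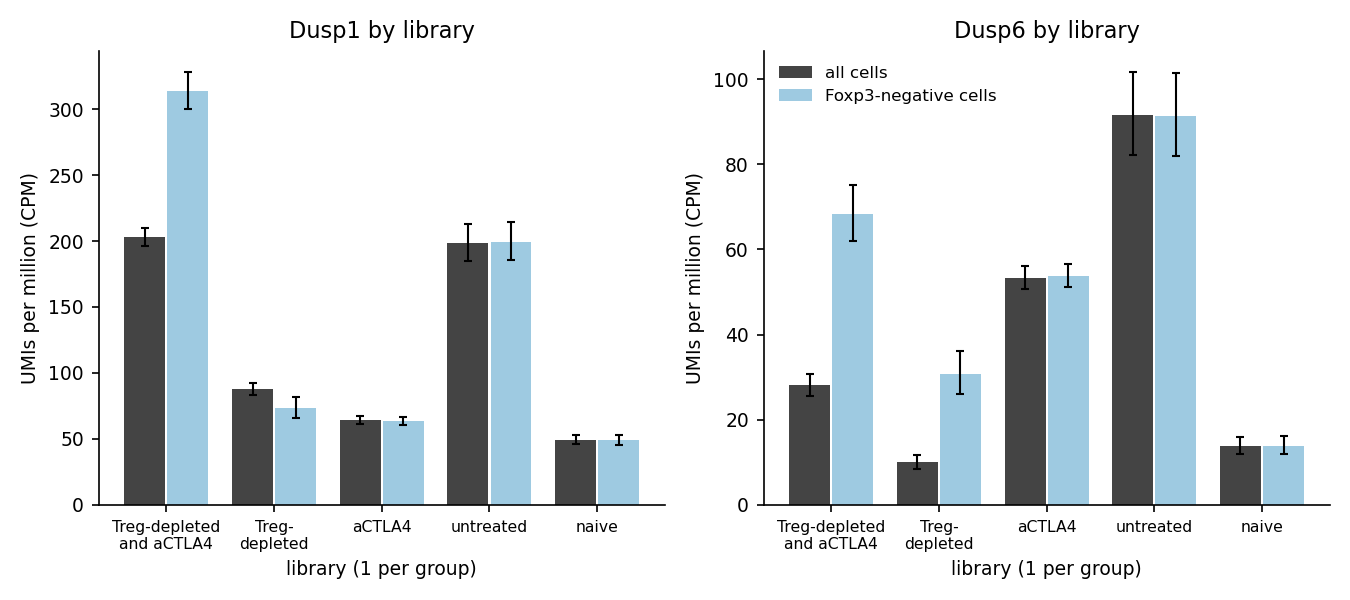
Level of Dusp1 (left) and Dusp6 (right) in CPM for each library, over all cells (dark bars) and over cells with no Foxp3 UMI (light bars); error bars are 95% Poisson intervals, counting error only. For Dusp1 the Treg-depleted and aCTLA4 library (203) and the untreated library (198) are the highest over all cells, while for Dusp6 the untreated library (91.5) is, and leaving out Foxp3-positive cells raises both bars of the Treg-depleted and aCTLA4 library.

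Both genes were higher in the untreated lymph node library than in the naive one. The ratio was 4.01 (3.61 to 4.45) for Dusp1 and 6.63 (5.54 to 7.95) for Dusp6. Of the 6814 genes above the minimum of 25 CPM on average and 30 UMIs, 12.8% lay on the higher side by 1.5-fold or more and 16.9% on the lower side. Tissue, tumor and activation differ together in this comparison.

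After antibody alone, both genes were lower than in untreated cells, by 3.07-fold (2.82 to 3.35) for Dusp1 and 1.71-fold (1.52 to 1.93) for Dusp6. Without cells that had 2 or more genes of the G2 and M phases, which are the dividing cells of the planned call, the log2 ratios were -1.07 for Dusp1 and -0.19 for Dusp6, and the interval of Dusp6 included 0. Of the 6644 genes compared, 6.62% were at least 1.5-fold lower and 5.46% higher. After toxin alone, the order of the genes was the other way round: Dusp6 was 9.12-fold (7.55 to 11.1) and Dusp1 2.26-fold (2.06 to 2.47) lower than in untreated cells. In that comparison 27.5% of 6529 genes were at least 1.5-fold lower and 12.2% higher. With edgeR's TMM factors, which moved the median of all genes by 0.28 on the log2 scale there, the log2 ratios were -2.91 for Dusp6 and -0.90 for Dusp1. Without the dividing cells they were -1.95 and -0.44.

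With both treatments Dusp1 was level with untreated cells, at a ratio of 1.02 (0.946 to 1.11), whereas Dusp6 was 3.25-fold (2.82 to 3.74) lower; 18.2% of 6614 genes were at least 1.5-fold lower and 10.6% higher. The TMM factors gave a Dusp1 log2 ratio of 0.20 and moved the median of all genes by 0.16. Without the dividing cells the log2 ratio was 0.68 for Dusp1 and -0.84 for Dusp6. Against antibody alone, Dusp1 was 3.15-fold (2.97 to 3.33) higher and Dusp6 1.89-fold (1.71 to 2.10) lower in the library with both treatments. In that comparison of 6514 genes, 7.81% stood higher by 1.5-fold or more and 9.64% lower. Against toxin alone, both were higher with both treatments, Dusp1 by 2.31-fold (2.17 to 2.46) and Dusp6 by 2.81-fold (2.34 to 3.38). Among 6261 genes, 4.44% stood higher by 1.5-fold or more and 0.99% lower, and Dusp6 itself averaged less than the 25 CPM that those genes had to reach.

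The balance between the genes needs no scaling between libraries. Dusp1 made up 87.8% (86.8 to 88.8) of the UMIs of both genes in the Treg-depleted and aCTLA4 library, 89.8% (88.2 to 91.2) in the Treg-depleted, 54.8% (53.0 to 56.5) in the aCTLA4, 68.4% (65.6 to 71.2) in the untreated and 78.2% (75.3 to 80.9) in the naive library. The Dusp1-to-Dusp6 ratio was 5.96-fold (5.30 to 6.70) higher with both treatments than with antibody alone, and 4.04-fold (3.29 to 4.97) higher with toxin alone than in untreated cells. With antibody alone it was 1.79-fold (1.55 to 2.07) lower than in untreated cells. Over all cells the balance thus lay towards Dusp1 in both libraries from toxin-treated mice and closest to even in the antibody library. Over cells without Foxp3, an alternative chosen after seeing the data, Dusp1 made up 82.1% (80.5 to 83.6) with both treatments, 70.6% (66.4 to 74.5) after toxin, 54.3% (52.5 to 56.0) after antibody, 68.6% (65.8 to 71.4) in untreated and 77.8% (74.9 to 80.6) in naive cells. The ratio was then 1.10-fold (0.872 to 1.38) that of untreated cells after toxin alone, an interval that includes 1, and 3.87-fold (3.41 to 4.38) higher with both treatments than with antibody alone.

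Expressed per cell, Dusp1 averaged 0.789 UMIs with both treatments, 0.650 after toxin, 0.396 after antibody, 0.691 in untreated and 0.0856 in naive cells. Dusp6 averaged 0.109, 0.0741, 0.327, 0.318 and 0.0239 UMIs per cell in the same order. On this scale the antibody and untreated libraries were close for Dusp6, while the median was 4797 UMIs per cell in the aCTLA4 library and 3133 in the untreated one.

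Once each cell had been thinned to 1000 UMIs, few cells carried more than 1 UMI of either gene. Before thinning, a cell held up to 31 UMIs of Dusp1 and up to 7 of Dusp6. In the thinned cells, Dusp1 was found in 21.2% (19.9 to 22.5) of cells with both treatments, 8.88% (7.71 to 10.2) after toxin, 7.38% (6.64 to 8.18) after antibody, 19.4% (17.1 to 21.9) of untreated and 4.75% (4.29 to 5.25) of naive cells. Without thinning these shares were 44.7%, 34.7%, 26.0%, 40.8% and 7.52%. The order of the thinned shares matched that of the CPM values. Dusp6 was found in 4.55% (3.92 to 5.24), 1.53% (1.06 to 2.15), 5.87% (5.21 to 6.59), 7.80% (6.27 to 9.57) and 1.27% (1.03 to 1.54) of thinned cells, in the same order of libraries, and in 9.51%, 5.90%, 23.5%, 23.3% and 2.24% without thinning. Its shares after toxin and in naive cells lay in the opposite order to their CPM, so no order is read from them.

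No cell type among the marker lists is known to lack either gene, and so no share gives a clean background. Cells with markers of another type had Dusp1 in 12.6%, 7.95%, 5.37%, 13.0% and 9.09% and Dusp6 in 2.36%, 1.10%, 5.77%, 2.17% and 2.60% of thinned cells, again in that order; these cells had medians of 1863 to 7096.5 UMIs before thinning. In the library with both treatments, 680 of 3959 thinned cells had 1 Dusp1 UMI, 119 had 2 and 39 had 3 or more. For Dusp6 these numbers were 169, 10 and 1.

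Dusp6 was low in cells with Foxp3 in both libraries from toxin-treated mice. In the library labelled Treg-depleted and aCTLA4, Dusp6 was at 3.63 CPM (38 UMIs in 1649 cells) in Foxp3-positive cells, against 68.3 CPM (437 UMIs in 2694 cells) in Foxp3-negative cells, 18.8-fold (13.5 to 27.0) lower. In the library labelled Treg-depleted, it was at 1.24 CPM (14 UMIs in 1284 cells) in Foxp3-positive cells, against 30.7 CPM (148 UMIs in 902 cells) in Foxp3-negative cells, 24.8-fold (14.3 to 46.6) lower. In the aCTLA4 library the 54 Foxp3-positive cells had 25.4 CPM, against 53.8 CPM in Foxp3-negative cells, 2.12-fold (1.21 to 4.11) lower. The 72 Foxp3-positive naive cells held 0 Dusp6 UMIs. The Poisson interval of that count reaches 25.7 CPM, above the 13.9 CPM of Foxp3-negative naive cells, so no difference was detectable at this depth. The 16 Foxp3-positive untreated cells were too few for a ratio. They held 6 Dusp6 UMIs, or 109 CPM (40.0 to 237), against 91.2 CPM in Foxp3-negative untreated cells, and so were not lower by level.

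Dusp1 did not share this pattern. It was at 94.0 CPM in Foxp3-positive cells of the library labelled Treg-depleted, against 73.6 CPM in Foxp3-negative cells, 1.28-fold (1.13 to 1.44) higher. It was likewise higher in Foxp3-positive cells of the aCTLA4 library (104 against 63.9 CPM, 1.63-fold, 1.20 to 2.16) and of the naive library (97.5 against 49.0 CPM, 1.99-fold, 1.08 to 3.37, from 14 UMIs). With both treatments it was 2.31-fold (2.16 to 2.48) lower in Foxp3-positive cells, at 136 CPM against 314 CPM in Foxp3-negative cells. Those Foxp3-negative cells had the most Dusp1 of the 5 Foxp3-negative groups. The rest of the stress list had 3 of 16 members higher by 1.5-fold or more and 10 lower in Foxp3-positive cells of that library, against 13.3% and 27.4% of all genes. After toxin alone 4 of 16 were higher and 6 lower, against 8.34% and 14.1%. The rest of the ERK list had 2 of 9 higher and 5 lower with both treatments, and 4 of 8 higher and 2 lower after toxin, so that most of the measured list was lower together with Dusp6 with both treatments but not after toxin alone.

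**Figure D2:**
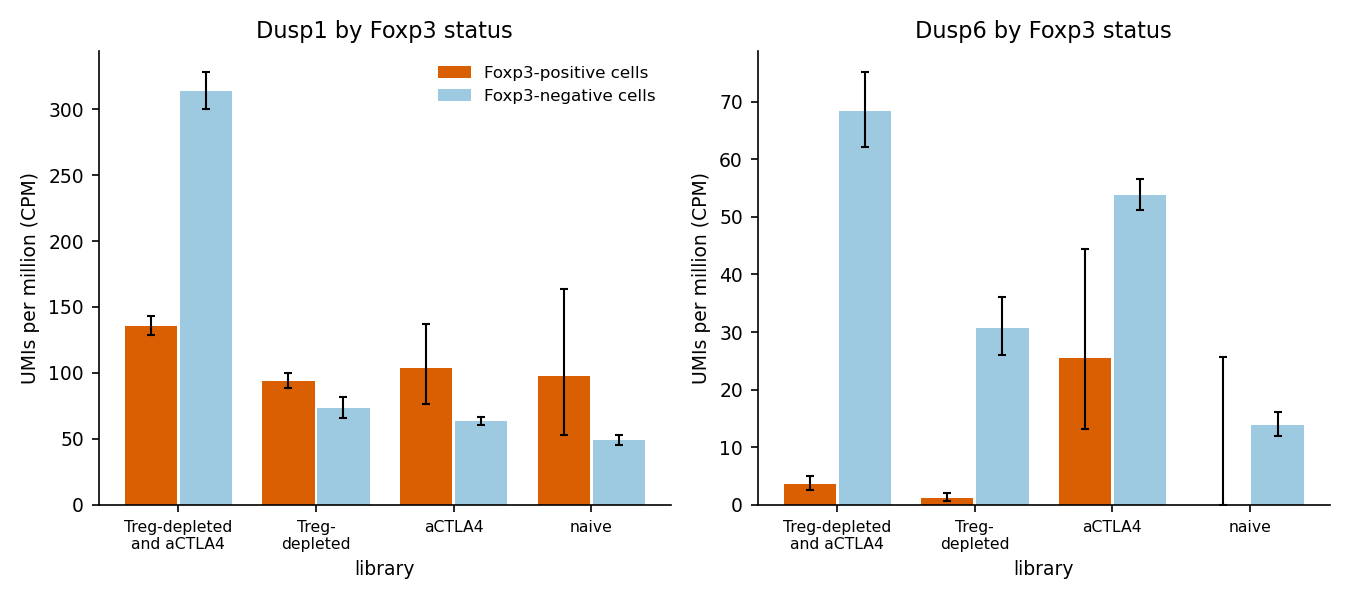
Level of Dusp1 (left) and Dusp6 (right) in CPM in cells with at least 1 Foxp3 UMI (orange) and cells with none (blue), in the 4 libraries with at least 50 cells of each kind; error bars are 95% Poisson intervals. Dusp6 is near 0 in the Foxp3-positive cells of both libraries from toxin-treated mice (3.63 and 1.24), while Dusp1 is at 136 and 94.0 in the same cells.

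Foxp3-positive cells also differed in makeup. A SMARTA receptor gene had a UMI in 18.6% of Foxp3-positive and 49.2% of Foxp3-negative cells with both treatments, and in 21.4% and 54.9% after toxin alone. Markers of another cell type were found in 25.4% and 6.68% of these cells with both treatments, and in 40.3% and 23.5% after toxin. Both calls used all UMIs of a cell and were not matched for depth. After toxin, Foxp3-positive cells had a median of 6611.5 UMIs, against 3835.5 in Foxp3-negative cells. The part of these differences in the result was not tested, nor whether the Foxp3-positive cells without a receptor UMI were SMARTA cells. Within cells that had a receptor gene, an alternative chosen after seeing the data, Dusp6 was 9.69-fold (5.93 to 16.9) lower in Foxp3-positive cells with both treatments and 11.7-fold (5.71 to 27.8) lower after toxin. In those cells the Dusp1 ratio after toxin was 1.10 (0.901 to 1.35), which includes 1.

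Foxp3-positive cells were also deeper: with both treatments they had a median of 4599 UMIs, against 1952.5 in Foxp3-negative cells. When Foxp3 was called after thinning to 1000 UMIs, the log2 ratio of Dusp1 with both treatments was -0.47, against -1.21 as first called, and that of Dusp6 was -3.10, against -4.24.

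Among Foxp3-negative cells alone, Dusp1 and Dusp6 were both higher with both treatments than with toxin alone, by 4.26-fold (3.804 to 4.78) and 2.23-fold (1.84 to 2.70). Against antibody alone, Dusp1 was 4.91-fold (4.60 to 5.24) and Dusp6 1.27-fold (1.14 to 1.41) higher in these cells, so that the direction for Dusp6 was opposite to that over all cells. Against untreated cells, toxin alone went with 2.71-fold (2.38 to 3.08) less Dusp1 and 2.97-fold (2.44 to 3.63) less Dusp6 among Foxp3-negative cells. These ratios were close, unlike those over all cells of that library. With both treatments, Foxp3-negative cells had 1.57-fold (1.45 to 1.71) more Dusp1 and 1.33-fold (1.16 to 1.54) less Dusp6 than untreated ones.

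Eomes, a transcription factor of cytotoxic and memory T cells, and Tox2, a factor of follicular helper and exhausted T cells, were looked at in Foxp3-negative cells. With both treatments, 695 Eomes-positive cells had 366 CPM of Dusp1, against 293 CPM in 1999 Eomes-negative cells, a ratio of 1.25 (1.14 to 1.37). Dusp6 was at 97.5 CPM in the same Eomes-positive cells, against 56.7 CPM in the Eomes-negative ones, a ratio of 1.72 (1.41 to 2.09). Both genes were thus higher in Eomes-positive cells of that library. After toxin alone (66 Eomes-positive cells) the ratios were 1.31 (0.908 to 1.83) for Dusp1 and 1.61 (0.937 to 2.61) for Dusp6. After antibody alone (72 such cells) they were 0.837 (0.550 to 1.22) and 0.734 (0.447 to 1.14). These 4 intervals include 1.

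Between Tox2-positive and Tox2-negative cells, the ratio lay from 0.775 to 0.924 for Dusp1 and from 0.884 to 1.29 for Dusp6 over the 4 lymph node libraries, and all 8 intervals included 1. When Tox2 was called after thinning, the log2 ratio of Dusp6 was 1.68 after toxin, 0.96 with both treatments and 0.30 after antibody, with intervals above 0; it was 0.30 in untreated cells, with an interval that includes 0. For Dusp1 the log2 ratio was 0.065 with both treatments, 0.17 after toxin and 0.18 after antibody, each with an interval that includes 0, and -0.55 in untreated cells.

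The level of both genes in dividing cells depended on how these were called. The planned call, at least 2 of 38 genes of the G2 and M phases, counted 25.9% of naive cells and so was loose; a call from at least 4 genes, chosen after seeing the data, counted 0.498% of naive cells and 28.7% of cells with both treatments, 37.9% after toxin, 22.4% after antibody and 5.94% of untreated cells. With the planned call, Foxp3-negative dividing cells were lower than the others for both genes after antibody, at ratios of 0.674 (0.612 to 0.743) for Dusp1 and 0.678 (0.610 to 0.754) for Dusp6, and for Dusp6 after toxin (0.574, 0.409 to 0.808). The ratios were 0.939 (0.851 to 1.04) for Dusp1 and 0.957 (0.777 to 1.18) for Dusp6 with both treatments and 0.863 (0.689 to 1.09) for Dusp1 after toxin, which include 1. The untreated library went the opposite way, with ratios of 1.20 (1.04 to 1.40) for Dusp1 and 1.30 (1.04 to 1.63) for Dusp6.

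With the stricter call, Foxp3-negative dividing cells had 177 CPM of Dusp1, against 340 CPM in the other Foxp3-negative cells with both treatments. These values were 59.0 against 83.2 CPM after toxin, 43.8 against 76.3 CPM after antibody and 121 against 208 CPM in untreated cells.

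For Dusp6, Foxp3-negative dividing cells had 32.3 CPM, against 78.8 CPM in the others with both treatments. The pairs were 15.0 against 41.8 CPM after toxin, 33.5 against 66.4 CPM after antibody and 58.0 against 95.2 CPM in untreated cells. With this call, dividing cells were thus lower for both genes in all 4 lymph node libraries, by 1.41- to 1.93-fold for Dusp1 and 1.64- to 2.79-fold for Dusp6, with intervals beyond 1 in each. Among Foxp3-positive cells, Dusp1 was at 101 CPM in dividing cells, against 219 CPM in the others with both treatments, and at 67.1 against 151 CPM after toxin.

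Dividing cells also held more UMIs, and per cell the direction differed between libraries. In the aCTLA4 library, dividing Foxp3-negative cells had a median of 9753 UMIs, against 4219.5 in the others. Their Dusp1 averaged 0.458 UMIs per cell, against 0.370, and their Dusp6 0.351, against 0.322. With both treatments the values per Foxp3-negative cell were 0.750 against 0.795 for Dusp1 and 0.137 against 0.184 for Dusp6.

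**Figure D3:**
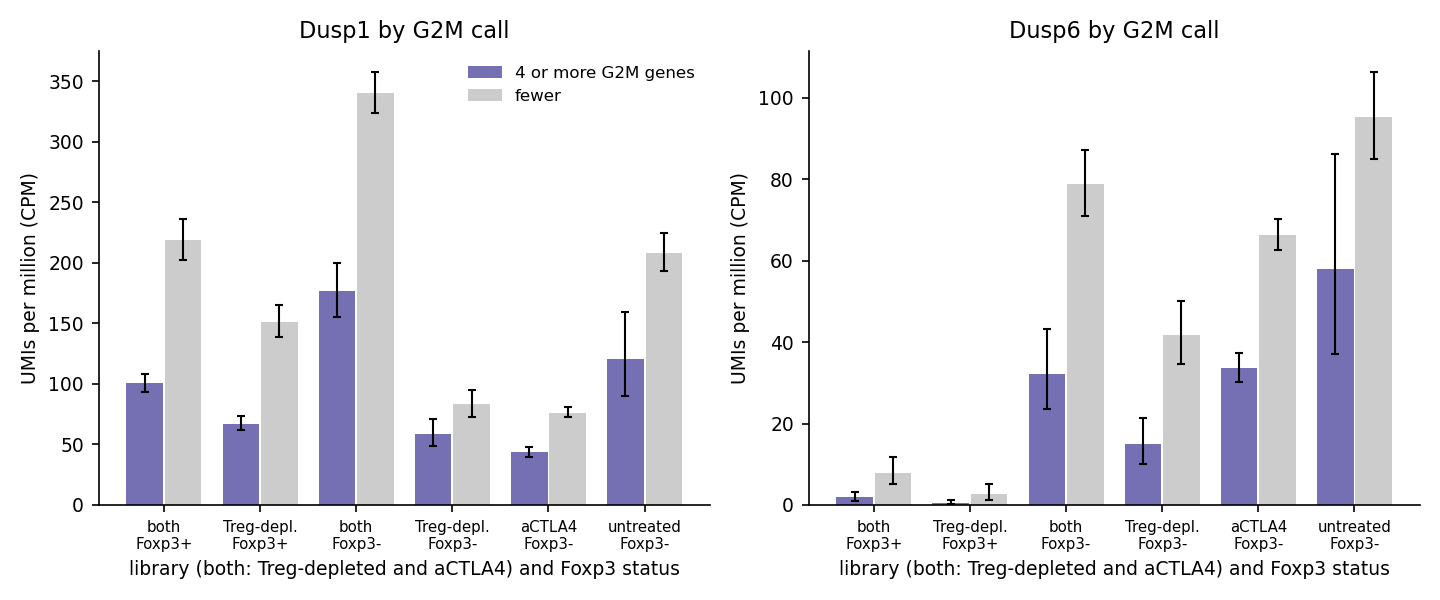
Level of Dusp1 (left) and Dusp6 (right) in CPM in cells with at least 4 G2 and M phase genes (purple) and in the remaining cells (grey), by library and Foxp3 status; error bars are 95% Poisson intervals. The purple bar is lower in each pair, for example 43.8 against 76.3 for Dusp1 in Foxp3-negative aCTLA4 cells.

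Over 22 disjoint sets of at least 50 cells, split by library, Foxp3, Eomes, Tox2 and the looser dividing call, Dusp1 ranged from 48.6 CPM in non-dividing naive cells to 366 CPM in Eomes-positive cells with both treatments. Dusp6 ranged from 0 CPM in non-dividing Foxp3-positive naive cells to 104 CPM in dividing untreated cells that lacked Foxp3, Eomes and Tox2. Pearson's r between the genes over these sets was 0.35 on the log2(CPM + 10) scale. The sets share libraries and depth, so r is a description.

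**Figure D4:**
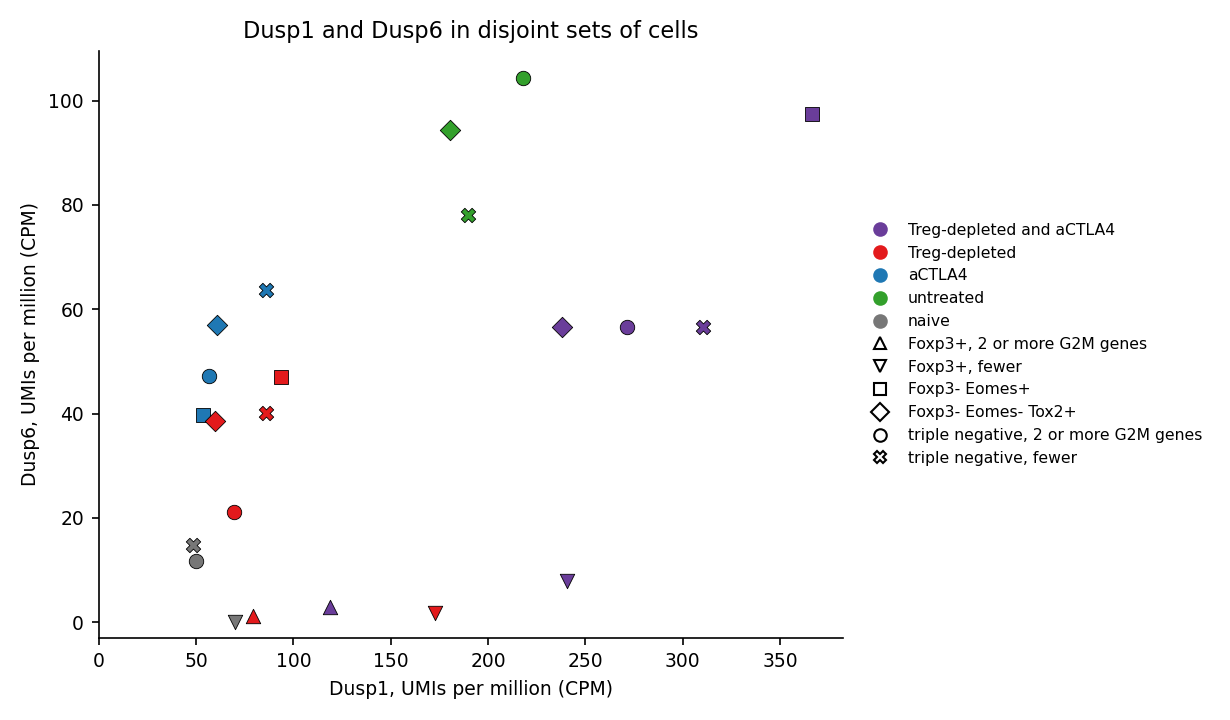
Dusp1 (horizontal) against Dusp6 (vertical) in CPM for 22 disjoint sets of cells; colour gives the library and shape the state of the cells. Foxp3-positive sets lie along the bottom, with Dusp6 at 7.99 or less, and the highest set for Dusp1 (366) is the Eomes-positive set of the library with both treatments.

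Among 6457 genes averaging at least 25 CPM over the sets, those most like Dusp1 were Tnfaip3 (r = 0.95), which encodes an inhibitor of NF-kappaB signalling, Bloc1s1 (0.87), Zfp36 (0.86), which encodes an RNA-binding protein that destabilises cytokine transcripts, Rabep2 (0.84) and Fos (0.83), which encodes an AP-1 subunit. Tnfaip3 ranged from 23.8 to 171 CPM, Zfp36 from 75.5 to 465 CPM and Fos from 63.6 to 1380 CPM, and each was lowest in Eomes-positive aCTLA4 cells and highest in Eomes-positive cells with both treatments. Those most like Dusp6 were Snhg8 (r = 0.94), a small nucleolar RNA host gene, Exoc6 (0.93), Pqbp1 (0.93), H2-Oa (0.92) and Paip2 (0.92). No gene stood on both lists of 5. With 6457 candidate genes, lists this short would seldom share a gene, so nothing is read from this.

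Within the aCTLA4 library, cells with Dusp1 had more Fos, Fosb and Rgs1, and cells with Dusp6 had more Egr1, Egr2 and Egr3. Among its Foxp3-negative cells thinned to 1000 UMIs, 330 cells with Dusp1 were set against 4182 without. Fos, Fosb and Rgs1, all of the stress list, were 2.34-fold (1.82 to 2.97), 1.90-fold (1.36 to 2.61) and 2.02-fold (1.57 to 2.57) higher in cells with Dusp1. In all, 6 of 17 measured stress genes were at least 1.5-fold higher and 0 lower there, against 9.27% and 9.75% of 9274 genes.

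In the same library, 268 cells with Dusp6 were set against 4244 without. Egr3, Egr2 and Egr1, transcription factor genes induced through ERK, were 2.61-fold (1.80 to 3.68), 2.51-fold (1.54 to 3.92) and 2.50-fold (1.97 to 3.13) higher in cells with Dusp6. Phlda1, another ERK target, was 1.84-fold (1.22 to 2.67) higher. Fos was at 1.19-fold (0.825 to 1.67), which includes 1. In cells with Dusp1, Egr3 was at 1.24-fold (0.780 to 1.89) and Egr1 at 0.801-fold (0.561 to 1.11), which also include 1. Of the ERK list, 4 of 12 measured genes were at least 1.5-fold higher in cells with Dusp6 and 2 lower, against 8.99% and 13.7% of all genes. In cells with Dusp1, 3 of the same 12 were higher and 0 lower, against 9.27% and 9.75%. The median log2 ratio of the ERK list was 0.42 in cells with Dusp6 and 0.43 in cells with Dusp1. Egr1 had been placed on the stress list, not the ERK list.

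With both treatments, the same contrast was made in Foxp3-negative cells. Fos was 1.53-fold (1.41 to 1.66) higher in the 598 cells with Dusp1 and 1.28-fold (1.12 to 1.46) higher in the 173 cells with Dusp6, and Egr3 was at 0.787-fold (0.490 to 1.22) in cells with Dusp1 and 1.12-fold (0.521 to 2.13) in cells with Dusp6. Of the stress list, 1 of 19 genes was at least 1.5-fold higher in cells with Dusp1, and 2 lower, against 4.35% and 6.38% of 8298 genes. Of 14 ERK genes, 3 were higher and 2 lower in cells with Dusp6, against 10.4% and 15.5%. In this library, 20 of 29 genes of the G2 and M phases were at least 1.5-fold lower in cells with Dusp1, against 6.38% of all genes. The count was also 20 of 29 in cells with Dusp6, against 15.5%. In the aCTLA4 library, 14 of 37 were lower in cells with Dusp1 and 30 of 37 in cells with Dusp6, against 9.75% and 13.7%. The split was not the same elsewhere. Among untreated, naive and toxin Foxp3-negative cells, the median log2 ratio of the ERK list was 0.09, 0.31 and 0.91 in cells with Dusp6. In cells with Dusp1 it was 0.04, 0.49 and -0.43. The stress list was at 0.21, 0.44 and 0.90 in cells with Dusp1 and at -0.03, 0.19 and 0.32 in cells with Dusp6. In the same order, the median of the G2 and M list was 0.24, 0.06 and -0.10 in cells with Dusp1, against -0.01, -0.01 and -0.02 for all genes. In cells with Dusp6 it was -0.32, 0.21 and -0.09, against -0.03, 0.09 and 0.11. Only 28 toxin cells had Dusp6.

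In the library with both treatments, the 2 genes also shared cells. Over all its cells, 71 of 3959 had both, against 38.1 that the product of the shares would give; Dusp1 was found in 39.4% (32.3 to 47.0) of cells with Dusp6 and 20.3% of the others. Among Foxp3-negative cells, 67 had both, against 43.9 from the product. In untreated cells 21 had both, against 16.3 from the product, and in aCTLA4 cells 14, against 19.8. Naive and toxin cells with both numbered 4 and 3.

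Of the other MAP kinase phosphatases, Dusp2, Dusp4, Dusp5, Dusp7, Dusp10 and Dusp16 were listed; Dusp8 and Dusp9 were not analysed here. Dusp4, a nuclear ERK, JNK and p38 phosphatase, was at 75.8 CPM with both treatments, 71.7 after toxin, 23.6 after antibody, 33.5 in untreated and 1.09 in naive cells. Dusp5, a nuclear ERK phosphatase, was at 111, 98.0, 25.1, 41.3 and 72.9 CPM in the same order. Over all cells, these ERK phosphatase genes were thus high in both libraries from toxin-treated mice, where Dusp6 was below its untreated and antibody levels. Among Foxp3-negative cells, however, Dusp6 was at 68.3 CPM with both treatments, above the 53.8 CPM after antibody, and at 30.7 CPM after toxin. Levels of Dusp4 and Dusp5 were not split by Foxp3, so whether they were also high in Foxp3-negative cells was not tested. Dusp10, which acts on p38 and JNK, was at 28.1, 25.01, 89.9, 103 and 107 CPM, low in the 2 libraries from toxin-treated mice. Dusp2, an inducible nuclear phosphatase of T cells, ranged from 289 CPM after toxin to 619 CPM in untreated cells, Dusp7 from 23.9 to 59.7 CPM, and Dusp16 stayed at or below 4.43 CPM. None of these 6 genes had the order of Dusp1 or of Dusp6 over the 5 libraries. Of the 12 listed atypical DUSP and slingshot phosphatases, Ssh2 was lower after toxin (99.4 against 239.7 CPM) and after antibody (158 CPM) than in untreated cells, and lower in untreated than in naive cells (367 CPM). Ssh1 was at 28.9 CPM after toxin and 48.9 CPM in untreated cells, against 24.99 CPM in naive cells; Dusp19 at 27.0 CPM with both treatments, 43.8 CPM after antibody and 42.1 CPM in untreated cells, against 23.8 CPM in naive cells; Dusp11 at 273 CPM after toxin, against 417 CPM in untreated cells; and Styx at 13.1 CPM in untreated cells, against 39.9 CPM in naive cells.

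The stress list held 23 genes, of which 20 were listed. Without Dusp1, 16 passed the minimum in each of the 6 comparisons. With antibody alone against untreated cells, 8 of 16 were at least 1.5-fold lower and 0 higher, against 6.62% and 5.46% of all genes, with a median log2 ratio of -0.60 against -0.07. The lowest were Fos (80.7 against 315 CPM, 3.901-fold), Jun (240 against 689 CPM, 2.87-fold) and Fosb (60.4 against 138 CPM, 2.29-fold), all AP-1 subunit genes. Between both treatments and antibody alone, 10 of 16 were higher and 0 lower, against 7.81% and 9.64% of all genes, with a median of 0.84 against -0.07. Cebpb (126 against 19.1 CPM), Fos (461 against 80.7 CPM) and Rgs1 (482 against 106 CPM) were 6.59-, 5.71- and 4.53-fold higher. Dusp1 lay on the side of most of the list in both comparisons.

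In 3 of the other comparisons the stress list went both ways. Between untreated and naive cells, 5 of 16 were higher and 3 lower, against 12.8% and 16.9% of all genes. After toxin alone 3 were higher and 5 lower than in untreated cells, against 12.2% and 27.5%. With both treatments 4 were higher and 2 lower than in untreated cells, against 10.6% and 18.2%. Between both treatments and toxin alone, 5 of 16 were higher and 0 lower, on the side of Dusp1, against 4.44% and 0.99%, led by Fosb at 250 against 55.5 CPM.

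The ERK list held 22 genes, of which 19 were listed and 8 to 11 passed the minimum beside Dusp6. Between untreated and naive cells, 5 of 10 were higher and 2 lower, against 12.8% and 16.9% of all genes. Among the higher ones were Phlda1 (120 CPM in untreated cells, 3.64-fold higher), the early activation marker Cd69 (926 against 392 CPM) and Egr2 (34.5 against 16.5 CPM). With antibody alone, 4 of 11 were lower than in untreated cells and 0 higher, against 6.62% and 5.46% of all genes. Cd69 was at 324 against 926 CPM and Phlda1 at 60.0 against 120 CPM.

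After toxin alone the ERK list went both ways, with 3 of 10 genes higher and 5 lower than in untreated cells, against 12.2% and 27.5% of all genes. Phlda1 (38.1 against 120 CPM, 3.15-fold) and Cd69 (327 against 926 CPM, 2.83-fold) were lower along with Dusp6, while Il2ra, a target of ERK that also marks Tregs, was at 577 against 13.1 CPM. With both treatments, 3 of 11 were higher and 5 lower than in untreated cells, against 10.6% and 18.2%. Against antibody alone, 5 of 9 were higher and 2 lower, against 7.81% and 9.64% of all genes. Over all cells, Dusp6 lay with Egr2 (18.3 against 36.4 CPM) on the lower side, whereas Il2ra, Dusp5 and Dusp4 were higher. Among Foxp3-negative cells Dusp6 was instead 1.27-fold (1.14 to 1.41) higher in this comparison, and the list was not recomputed in those cells. Against toxin alone, 1 of 8 was higher, against 4.44% of all genes.

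**Figure D5:**
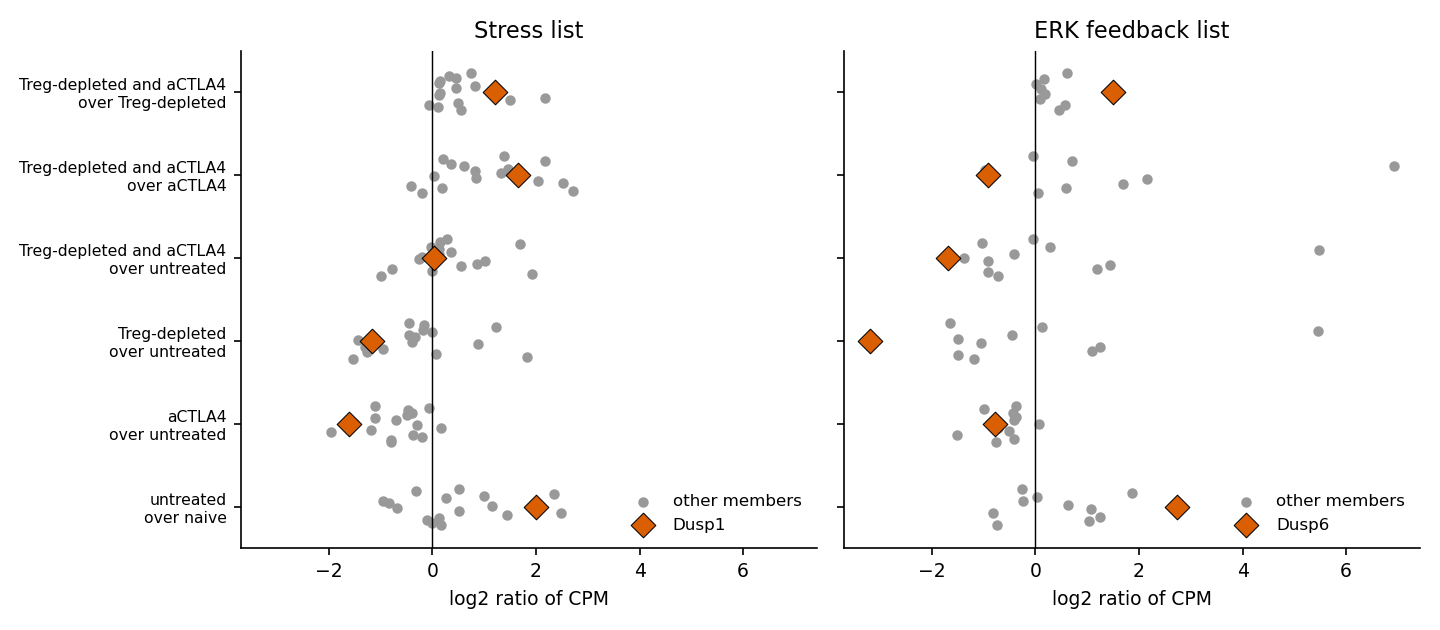
Log2 ratio of CPM in the 6 comparisons for members of the stress list (left, Dusp1 in orange) and the ERK list (right, Dusp6 in orange); grey points are the other members above the minimum of 25 CPM. Dusp1 is at 1.65 for both treatments over antibody alone, where 10 of the 16 other members are at least 1.5-fold higher, while Dusp6 is the lowest ERK list point after toxin alone (-3.19) and the far right point of that list is Il2ra.

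Of 34 genes of the MAP kinase pathway itself, 33 were listed. After toxin alone, 11 of 28 that passed the minimum were at least 1.5-fold lower than in untreated cells and 2 higher, against 27.5% and 12.2% of all genes. Rasgrp1, which links the receptor to RAS, was at 93.1 CPM after toxin and 110 CPM with both treatments, against 288 CPM in untreated cells. Map2k3, an activator of p38, was at 164 CPM after toxin, 140 CPM with both treatments and 93.8 CPM after antibody, against 47.8 CPM in untreated cells. Mapk11, which encodes p38-beta, was at 23.5, 21.3 and 61.8 CPM in these libraries, against 75.3 CPM in untreated cells.

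Dusp1 is itself known as a glucocorticoid-induced gene, and 12 of 13 other such genes were listed. Between untreated and naive cells, where Dusp1 was higher, 4 of the 6 listed genes that passed the minimum were lower and 1 higher, against 16.9% and 12.8% of all genes; Tsc22d3 was at 95.9 against 253 CPM and Sgk1 at 18.8 against 96.1 CPM. After toxin alone, where Dusp1 was lower than in untreated cells, 5 of 8 were higher and 2 lower, against 12.2% and 27.5%, with the metallothionein gene Mt1 at 280 against 1.57 CPM, Fkbp5 at 114 against 38.7 CPM and Sgk1 at 55.6 against 18.8 CPM. With antibody alone, where Dusp1 was also lower than in untreated cells, 2 of 5 were lower and 1 higher, against 6.62% and 5.46%. Between both treatments and antibody alone, where Dusp1 was higher, 7 of 9 were higher and 1 lower, against 7.81% and 9.64%. Mt1 was at 323 against 5.18 CPM and Cxcr4 at 70.6 against 15.6 CPM. The 7 include Mt2, at 56.5 CPM with both treatments and 0 UMIs after antibody. It was 527-fold higher when that 0 is set to 3 UMIs, with a lower interval limit of 428-fold. Between both treatments and toxin alone, where Dusp1 was higher, 1 of 9 was higher and 0 lower, against 4.44% and 0.99%. With both treatments over untreated cells, where Dusp1 was level, 6 of 9 were higher and 2 lower, against 10.6% and 18.2%. These counts are over all cells, and Foxp3 had a UMI in 58.7% of cells after toxin and 1.46% of untreated cells. A wider list of T cell receptor response genes held Egr and Nr4a genes together with Lag3, Pdcd1, Ikzf2, Bhlhe40, Irf4 and Tnfrsf4. Of its members above the minimum, 13 of 15 were at least 1.5-fold higher in untreated than in naive cells, against 12.8% of all genes. Lag3, Bhlhe40, Tnfrsf4 and Irf4 had the largest ratios, whereas Egr1 and Nfkbid did not reach 1.5-fold. After toxin alone 9 of 15 were lower and 2 higher than in untreated cells, against 27.5% and 12.2% of all genes. Nr4a3 was at 11.1 against 40.3 CPM, and Tnfrsf4, a co-stimulatory receptor gene that Tregs also express, at 1814 against 278.9 CPM.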

How the data were processed

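UMI counts per gene and cell were measured in 5 libraries, 1 per group, and deposited by the authors as 1 table of raw counts per library. The submitters' processing notes name the mm10 build and 4 tools, Seurat 4.0.4, R 4.1.1, Cell Ranger 6.0.0 and bcl2fastq 2.20, without their roles, and per the labels' protocols the libraries were 10x Genomics 3′ libraries. How genes and cells were chosen for the tables is not given in the sources used here, and the totals cover listed genes only. All values were whole numbers. A filter of 200 genes and at most 10% mitochondrial UMIs removed 0 cells, and no doublet caller was run.

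Counts were summed over cells and scaled to CPM. Ratios carry exact conditional binomial intervals, CPM values exact Poisson intervals and shares of cells exact binomial intervals (Clopper-Pearson), each at 95% and for counting error only; ratios of ratios carry a normal interval on the log scale. There was no test, because each group had 1 library. Between libraries a gene at 0 UMIs in 1 of them was set to 3 UMIs there for its ratio; between cell states it was given none. List members counted as higher or lower from 1.5-fold, provided that the 2 libraries averaged 25 CPM or more and summed to 30 UMIs; within single cells 30 UMIs were needed. Cells with 1 UMI of Foxp3, Eomes or Tox2 counted as positive, and dividing cells had at least 2 listed G2 and M phase genes after thinning to 1000 UMIs, which 571 cells did not reach. States needed 50 cells on each side. Genes of each list were named from the 4 largest log2 ratios of a comparison, and within single cells after their values were seen. Likeness was Pearson's r over the sets of cells. The members, lists and alternatives were chosen with earlier results of these data known, and 6 alternatives were added after seeing the files. Promoter sequences and spans came from RefSeq (GRCm38.p6) and gene coordinates from GENCODE M21. The computation was tested on simulated counts. Tools were Python 3.11.15, numpy 2.4.6, scipy 1.17.1, pandas 2.3.3, matplotlib 3.10.9, R 4.3.3 and edgeR 4.0.16, the last for TMM factors only.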

Additional observations from a re-analysis of the deposited data

Results flagged for a closer look

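With 1 library per group, these opposite directions were not tested. As first computed, each pair has counting intervals on opposite sides of no difference.

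The antibody ratio of Dusp1 had opposite signs in the 2 settings: its log2 ratio was 1.21 with both treatments over toxin alone and -1.62 with antibody alone over untreated cells. The toxin ratio did too, at 1.65 with both treatments over antibody alone and -1.17 with toxin alone over untreated cells. Taken as a ratio of the antibody ratios, this was 7.10 (6.39 to 7.88). For Dusp6, the antibody log2 ratio was 1.49 in toxin-treated mice and -0.78 without toxin, a ratio of ratios of 4.81 (3.89 to 5.96). Among Foxp3-negative cells these Dusp6 values were 1.15 and -0.76. Without the dividing cells of the planned call, the interval of the Dusp6 antibody ratio without toxin included no difference, so its direction was then not clear.

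Between Foxp3-positive and Foxp3-negative cells, the log2 ratio of Dusp1 was -1.21 with both treatments, 0.35 after toxin alone, 0.70 after antibody alone and 0.99 in naive cells. The naive value rests on 14 Dusp1 UMIs in Foxp3-positive cells. With Foxp3 called after thinning, the value with both treatments stayed negative but was smaller in size. Within cells that had a receptor gene, the ratio after toxin was 1.10 (0.901 to 1.35), which includes no difference.

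Between dividing and other Foxp3-negative cells, called from at least 2 G2 and M phase genes, the log2 ratio of Dusp1 was -0.57 after antibody and 0.27 in untreated cells. That of Dusp6 was -0.56 after antibody, -0.80 after toxin and 0.38 in untreated cells. With at least 4 genes, both were negative in untreated cells.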

How the results depend on the processing

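The 3 treated, the untreated and the naive libraries are named by treatment here (both, toxin, antibody, untreated, naive), values are log2 ratios, and alternatives marked as added were chosen after seeing the data. Of 132 recomputed ratios between libraries, 71 stayed within their counting interval, 58 moved beyond it and 3 changed sign; of 112 ratios between states, 72 stayed, 38 moved and 2 changed sign. The cause was not tested. No paired analysis was possible because each group had 1 library. For the same reason no replicate was left out.

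With TMM factors, Dusp1 was at -0.90 for toxin over untreated, 0.20 for both over untreated, 1.10 for both over toxin. Dusp6 was at -2.91 for toxin over untreated.
With the mean CPM of single cells, Dusp1 was at 2.22 for untreated over naive, -1.02 for toxin over untreated, 0.37 for both over untreated, 1.89 for both over antibody, 1.40 for both over toxin, -0.27 for Tox2 (antibody), -0.42 for dividing in Foxp3-negative (antibody), -0.91 for dividing in Foxp3-positive (toxin), -0.99 for Foxp3 (both), 0.17 for Eomes (both), 0.11 for dividing in Foxp3-negative (both), -0.63 for dividing in Foxp3-positive (both). Dusp6 was at -0.57 for antibody over untreated, -2.56 for toxin over untreated, -0.92 for both over untreated, -0.35 for both over antibody, -0.28 for dividing in Foxp3-negative (antibody), -3.53 for Foxp3 (both).
With states called after thinning, Dusp1 was at -0.55 for Tox2 (untreated), 0.18 for Tox2 (antibody), 0.54 for Foxp3 (toxin), 0.17 for Tox2 (toxin), -0.77 for dividing in Foxp3-negative (toxin), -0.66 for dividing in Foxp3-positive (toxin), -0.47 for Foxp3 (both), 0.86 for Eomes (both), 0.065 for Tox2 (both), -0.70 for dividing in Foxp3-negative (both), -0.67 for dividing in Foxp3-positive (both). Dusp6 was at 0.30 for Tox2 (antibody), -3.07 for Foxp3 (toxin), 1.68 for Tox2 (toxin), -1.75 for dividing in Foxp3-negative (toxin), -3.10 for Foxp3 (both), 1.57 for Eomes (both), 0.96 for Tox2 (both), -0.89 for dividing in Foxp3-negative (both).
Without dividing cells (2 or more genes), Dusp1 was at -1.07 for antibody over untreated, -0.44 for toxin over untreated, 0.68 for both over untreated, 1.75 for both over antibody, 1.12 for both over toxin. Dusp6 was at 2.43 for untreated over naive, -0.19 for antibody over untreated, -1.95 for toxin over untreated, -0.84 for both over untreated, -0.65 for both over antibody, 1.10 for both over toxin.
Without dividing cells (4 or more genes, added), Dusp1 was at -1.42 for antibody over untreated, -0.77 for toxin over untreated, 0.50 for both over untreated, 1.92 for both over antibody. Dusp6 was at -0.53 for antibody over untreated, -2.27 for toxin over untreated, -0.90 for both over untreated, -0.37 for both over antibody.
Without cells with Foxp3 or Il2ra, Dusp1 was at -1.46 for toxin over untreated, 0.75 for both over untreated, 2.41 for both over antibody, 2.21 for both over toxin. Dusp6 was at -1.41 for toxin over untreated, -0.30 for both over untreated, 0.49 for both over antibody (sign changed), 1.11 for both over toxin.
In receptor cells only (Foxp3 contrasts added), Dusp1 was at -1.39 for toxin over untreated, 0.37 for both over untreated, 2.00 for both over antibody, 1.76 for both over toxin, 0.14 for Foxp3 (toxin), -1.44 for Foxp3 (both). Dusp6 was at -2.30 for toxin over untreated, -0.99 for both over untreated, -0.15 for both over antibody, -3.55 for Foxp3 (toxin), -3.28 for Foxp3 (both).
In Foxp3-negative, non-dividing receptor cells only (added), Dusp1 was at -1.21 for antibody over untreated, -1.44 for toxin over untreated, 0.80 for both over untreated, 2.01 for both over antibody, 2.24 for both over toxin. Dusp6 was at -0.23 for antibody over untreated, -0.61 for toxin over untreated, 0.014 for both over untreated (sign changed), 0.25 for both over antibody (sign changed), 0.63 for both over toxin.
Without cells with markers of another type, Dusp1 was at 1.81 for both over antibody, -0.37 for dividing in Foxp3-negative (antibody). Dusp6 was at -1.43 for both over untreated, -0.70 for both over antibody.
Without the 2% of cells with most UMIs, Dusp1 was at 1.74 for both over antibody.
With dividing cells called from 4 or more genes (added), Dusp1 was at -0.79 for dividing in Foxp3-negative (untreated) (sign changed), -0.80 for dividing in Foxp3-negative (antibody), -0.95 for dividing in Foxp3-negative (both). Dusp6 was at -0.72 for dividing in Foxp3-negative (untreated) (sign changed), -0.98 for dividing in Foxp3-negative (antibody), -1.48 for dividing in Foxp3-negative (toxin), -1.29 for dividing in Foxp3-negative (both).
In Foxp3-negative cells only (added), the log2 ratio of the Dusp1-to-Dusp6 ratios was 0.13 for toxin over untreated, 1.07 for both over untreated, 1.95 for both over antibody and 0.94 for both over toxin (sign changed).

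Totals without mitochondrial and ribosomal genes and a stricter cell filter left all 12 ratios between libraries within their intervals. A minimum of 100 CPM, or none, moved 11 and 8 of 24 list counts by over 1.5 times. All 20 shares of cells moved with no thinning or thinning to 500 UMIs. The unknown spread between mice limits every comparison.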
